A study of Mus musculus with 8 samples.

Results

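Retinoid metabolism and receptors were followed through 9 genes of the naive mouse cornea: the carrier Rbp4 and its receptor Stra6, the retinol dehydrogenase Rdh10, the retinaldehyde dehydrogenases Aldh1a2 and Aldh1a3, the binding protein Crabp2, the breakdown enzyme Cyp26b1, and the receptors Rarg and Rxra. They were chosen by symbol, with earlier results of these data known, to cover steps from the carriage of retinol to the receptors. Storage, carotenoid cleavage, retinaldehyde reduction and coregulators have no gene among them. They are 9 of 54532 genes listed for these corneas and 9 of the 25402 that were tested. All 9 passed the filter on low values. Total RNA was sequenced from 4 corneas of BALB/cN mice (Balb/c in the sample labels) and 4 corneas of C57BL/6N mice. All mice were untreated males of inbred strains with no engineered allele, and no age is stated for the sequenced mice. BALB/c mice are albino and C57BL/6N mice are black. The strains are the parents of a cross in which lymphatic vessels of the cornea were mapped, and the comparison asks which corneal transcripts differ between them. It is not stated that each cornea came from a separate animal, so p-values measure the spread between these samples, which may be technical.

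Vitamin A reaches cells as retinol, carried in blood by retinol-binding protein and taken up through STRA6. Inside the cell retinol is oxidised to retinaldehyde by alcohol or retinol dehydrogenases and then to retinoic acid by ALDH1A enzymes, retinoic acid is held by CRABP proteins and broken down by CYP26 enzymes, and it acts on genes through pairs of RAR and RXR receptors. The corneal epithelium depends on vitamin A, and its lack turns the ocular surface dry and keratinised.

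Expression was given as rlog values, a log2 scale on which DESeq2 pulls poorly measured genes toward their mean, so that differences of low genes are understated. The values hold no read counts, and the depth of each library is unknown here. Corneal epithelium markers such as Krt12 were high in all 8 corneas, with a mean over 7 markers of 16.04 to 16.30. The corneas differed in other tissues. The mean of 8 stromal keratocyte markers was 11.69 in BALB/cN replicate 2, 11.19 in C57BL/6N replicate 3 and 11.14 in C57BL/6N replicate 4, against 13.22 to 13.99 in the other 5 corneas. In the same order, corneal endothelium markers averaged 11.86, 11.71 and 11.52, against 12.36 to 12.65 in the other 5. Macrophage markers averaged 6.04, 5.99 and 5.96, against 6.58 to 6.85. Ciliary and pigment epithelium markers averaged 8.02 and 8.73 in BALB/cN replicates 1 and 4 and 5.19 to 6.86 in the other corneas. Lens markers were also highest in these 2 corneas, reaching 7.82, against 5.01 to 5.66 in the others. Blood vessel markers averaged 5.86 and 6.33 in the same 2 corneas, against 4.65 to 5.23 in the others. Muscle markers averaged 6.55 and 6.89 there, against 4.89 to 5.74. The 6 conjunctiva markers moved both ways without overlap between strains. Of these Krt13, Krt4, Krt19 and Muc4 were lower in BALB/cN by the limma test, and the mean of all 6 was 8.81 to 9.29 in BALB/cN and 9.40 to 9.58 in C57BL/6N. The goblet cell mucin gene Muc5ac was at 5.21 to 7.80 in BALB/cN and 4.35 to 4.51 in C57BL/6N, and Krt8 at 4.23 to 4.49 and 3.90 to 4.07, and neither passed the test. Of the 9 ciliary and pigment epithelium markers tested 1 was lower in BALB/cN, and none passed among 7 corneal epithelium, 8 stromal, 5 corneal endothelium, 10 lens, 7 photoreceptor, 9 macrophage, 6 blood vessel, 7 muscle and 3 red blood cell markers tested.

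Of the 9 retinoid genes, Aldh1a3 was higher in BALB/cN and the other 8 did not pass the test at an adjusted p of 0.01 (limma, Benjamini-Hochberg over all genes tested). Among all genes tested 5.74% passed, 2.83% higher and 2.91% lower in BALB/cN, so that 1 gene of 9 is not far from this background. The values of the strains did not overlap for 2 of the 9 genes, Aldh1a3 and Rxra, where the same held for 18.3% of the genes in the fit. The median difference over the 9 genes, BALB/cN minus C57BL/6N, was 0.08 on the rlog scale, against 0.008 over all genes tested.

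**Figure D1:**
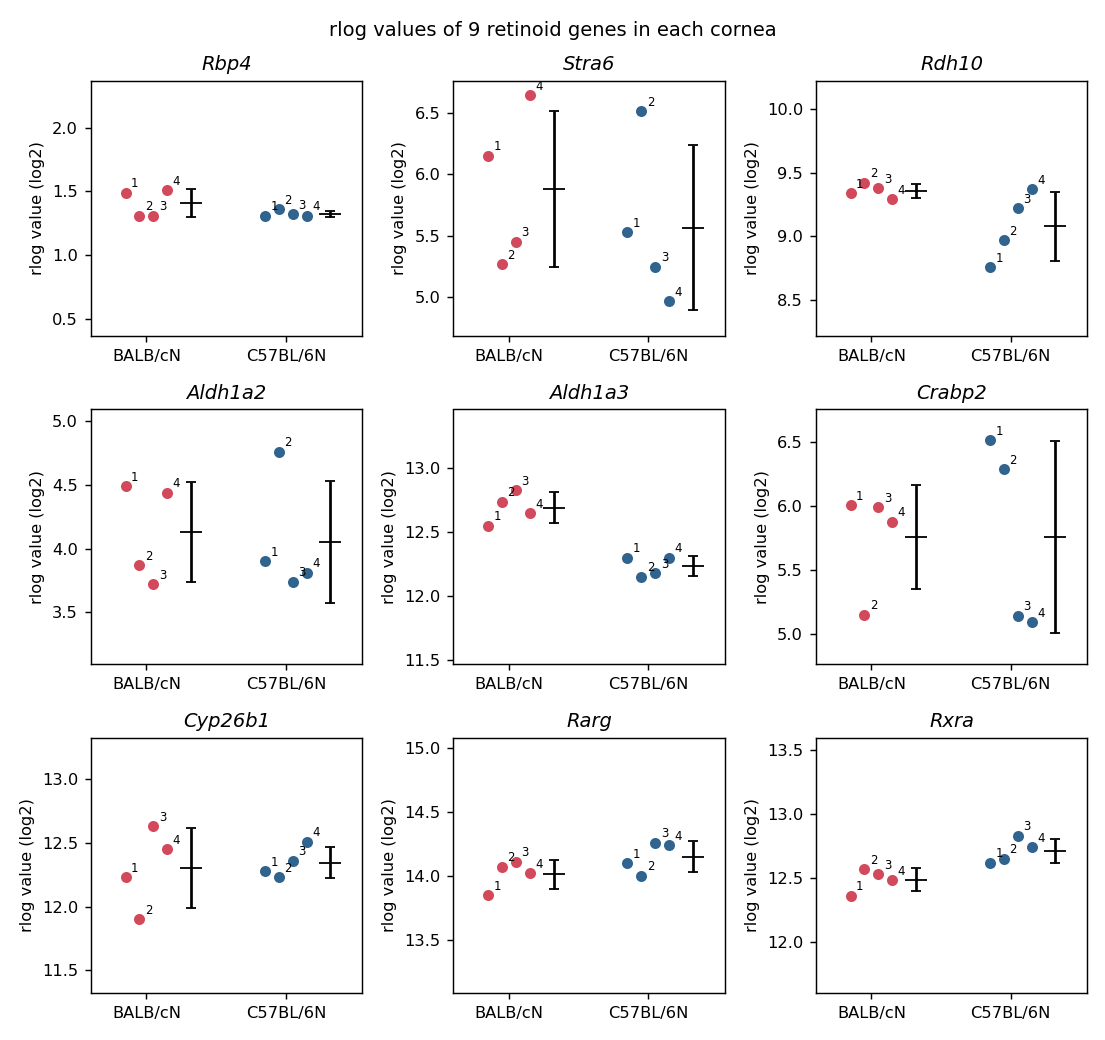
Each panel plots the rlog value (log2) of 1 gene in 4 BALB/cN corneas (red) and 4 C57BL/6N corneas (blue), with replicate numbers beside the points and the mean with its SD (n = 4) in black. The strains are apart for Aldh1a3 (12.55 to 12.83 against 12.15 to 12.30) and Rxra (12.36 to 12.57 against 12.62 to 12.83) and overlap for the other 7 genes.

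Per kilobase of exon, Rarg had the highest level of the 9 genes, with a log2 rlog value per kilobase of 11.99 on average and 11.76 to 12.16 over the 8 corneas. By its rlog value Rarg lay at percentile 98.6 of the 16015 protein-coding genes tested. Aldh1a3 (9.95 to 10.63 per kilobase), Rxra (9.91 to 10.38) and Cyp26b1 (9.48 to 10.21) followed, and their ranges over the 8 corneas overlapped. Their order within single corneas was not compared. These levels describe the whole excised cornea.

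Below these 4 genes lay Rdh10, with 6.70 to 7.36 per kilobase, and Crabp2, with 4.69 to 6.12. Stra6 (2.43 to 4.10) and Aldh1a2 (2.54 to 3.58) overlapped in their ranges, and Rbp4 was lowest at 0.89 to 1.09. The high genes thus include the last enzyme of synthesis, an enzyme of breakdown and a receptor pair, and the carrier and its receptor are among the lowest.

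Rbp4, the carrier of retinol in plasma that is made mainly by the liver, had rlog values of 1.49, 1.31, 1.31 and 1.51 in BALB/cN replicates 1 to 4 and 1.31, 1.36, 1.32 and 1.31 in C57BL/6N replicates 1 to 4. It was at percentile 4.65 of protein-coding genes, and its 2 highest values were those of BALB/cN replicates 1 and 4. The strain difference was 0.08 (95% interval -0.03 to 0.19, adjusted p = 0.349 by limma).

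Stra6, the membrane receptor that takes retinol from its carrier, was at 6.15, 5.27, 5.45 and 6.64 in BALB/cN replicates 1 to 4 and at 5.53, 6.51, 5.25 and 4.97 in C57BL/6N. The strains overlapped, with BALB/cN replicates 1 and 4 and C57BL/6N replicate 2 above all other corneas. The difference of 0.31 had a 95% interval of -0.53 to 1.15 (adjusted p = 0.661 by limma), so that neither direction is shown. It was 0.06 without BALB/cN replicate 4, 0.63 without C57BL/6N replicate 2 and 0.07 with the stromal covariate.

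The other genes of carriage and uptake, 6 of 7 of them tested, held 1 gene that was higher and 2 that were lower in BALB/cN. Rbp2, a cellular retinol-binding protein best known from the intestine, was at 12.09 to 12.20 in the 4 BALB/cN corneas and 12.87 to 13.14 in the 4 C57BL/6N corneas. The difference was -0.87 ± 0.0652 (SE, n = 4 per strain), or 1.83-fold lower on the rlog scale (adjusted p = 2.59e-05 by limma).

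Stra6l, a relative of Stra6 that encodes a second receptor for retinol-binding protein, was at 5.15 to 5.53 in BALB/cN and 6.01 to 6.20 in C57BL/6N. Its difference was -0.77 ± 0.104 (SE, adjusted p = 0.00125 by limma), and it did not pass when BALB/cN replicates 1 and 4 were left out (-0.65, adjusted p = 0.0255) or when the 3 corneas of low stromal markers were left out (-0.78, adjusted p = 0.0246). Stra6 itself did not pass in any of the 22 alternative settings run.

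Scarb1, a lipoprotein receptor that also takes up carotenoids, was at 10.64 to 10.82 in BALB/cN and 10.13 to 10.32 in C57BL/6N. It was higher by 0.50 ± 0.0627 (SE), which is 1.42-fold on the rlog scale (adjusted p = 0.000737 by limma), and it did not pass with median centring (0.43, adjusted p = 0.016), without BALB/cN replicates 1 and 4 (0.51, adjusted p = 0.0141) or without the 3 corneas of low stromal markers (0.48, adjusted p = 0.0128). Bco2, an enzyme that cleaves carotenoids, was separated at 6.26 to 6.72 against 6.87 to 7.51 and had a difference of -0.58 (95% interval -0.92 to -0.24, adjusted p = 0.0371), short of the threshold. Its partner in carotenoid cleavage, Bco1, had a difference of 0.13 (95% interval -0.18 to 0.45).

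**Figure D2:**
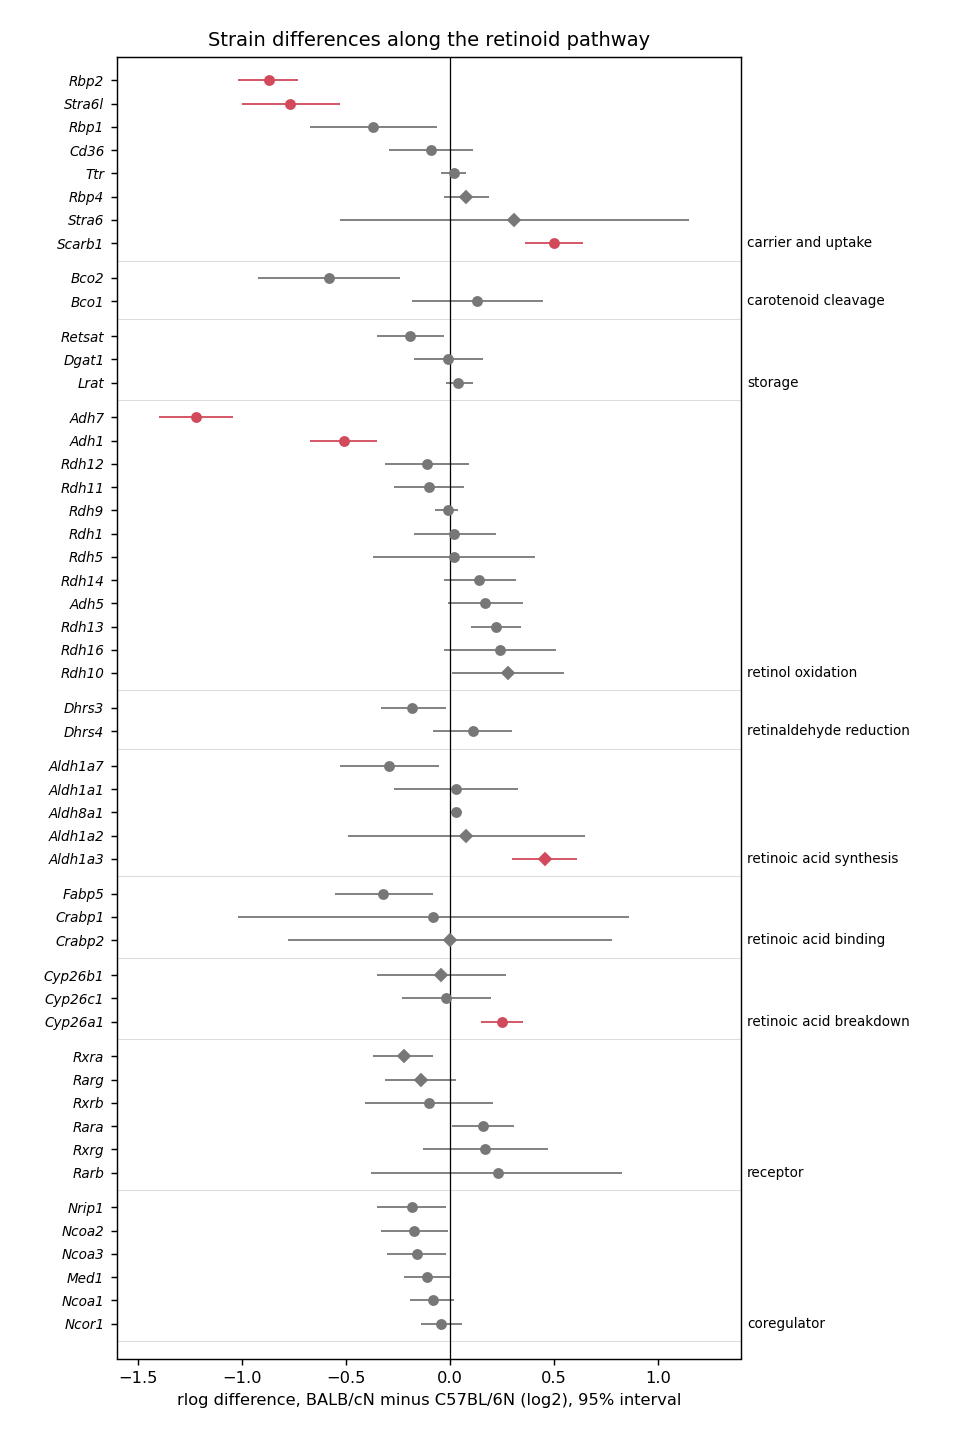
The plot shows the rlog difference, BALB/cN minus C57BL/6N (log2), with its 95% interval from limma for tested genes of the pathway, grouped by role. Diamonds are the 9 genes and circles the wider pathway, and red marks an adjusted p of 0.01 or less. The red points are Rbp2, Stra6l, Adh7 and Adh1 below 0 and Scarb1, Aldh1a3 and Cyp26a1 above it.

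Over the wider pathway, a list of 49 further genes, 42 were tested, 2 were higher and 4 lower in BALB/cN, beside 2.83% higher and 2.91% lower over all genes tested, and 36 did not pass. Of the 7 not tested, Rdh7, Dhrs9, Sdr16c5 and Adh4 were listed at 0 in all 8 corneas and 3 had a mean rlog value below 0. The 42 genes had a median difference of -0.06, and the strains did not overlap for 11 of them, where 18.3% of all genes tested did not. All 6 calls lay in uptake, retinol oxidation and retinoic acid breakdown, and none of the 3 storage genes, 4 further receptors and 7 coregulators tested passed.

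Retinol oxidation was the role with the largest difference in the list. Rdh10, the dehydrogenase known to make most of the retinaldehyde for retinoic acid in the embryo, was at 9.34, 9.42, 9.38 and 9.29 in BALB/cN replicates 1 to 4 and at 8.76, 8.97, 9.22 and 9.37 in C57BL/6N. The BALB/cN corneas lay close together, and C57BL/6N replicate 4 lay within their range. The difference was 0.28 (95% interval 0.01 to 0.55, adjusted p = 0.201 by limma).

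With the stromal marker mean as a covariate Rdh10 passed the test (0.35, adjusted p = 0.00928). In C57BL/6N the 2 corneas of low stromal markers had the higher Rdh10 values, 9.22 and 9.37 against 8.76 and 8.97, and in BALB/cN the 1 such cornea had 9.42 against 9.29 to 9.38. Without these 3 corneas the difference was larger, 0.47, with an adjusted p of 0.0223 that did not pass.

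Adh7, an alcohol dehydrogenase of epithelia that can oxidise retinol, was at 12.94, 12.99, 12.86 and 12.71 in BALB/cN replicates 1 to 4 and at 14.00, 13.98, 14.15 and 14.26 in C57BL/6N. The strains were far apart against the spread within each, and the difference of -1.22 ± 0.0803 (SE) is 2.33-fold lower in BALB/cN on the rlog scale (adjusted p = 1.22e-05 by limma). Adh1, its neighbour in the alcohol dehydrogenase cluster on chromosome 3, was at 14.39 to 14.69 in BALB/cN and 14.98 to 15.18 in C57BL/6N, a difference of -0.51 ± 0.0712 (SE, adjusted p = 0.00149). Adh1 did not pass with median centring (-0.58, adjusted p = 0.0129 by limma) or without BALB/cN replicates 1 and 4 (-0.43, adjusted p = 0.0271).

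Adh5, also in the cluster, had a difference of 0.17 (95% interval -0.01 to 0.35). Adh1 was the highest of the 3 per kilobase, at 13.39 in BALB/cN and 13.90 in C57BL/6N, with Adh7 at 10.96 and 12.18 and Adh5 at 7.52 and 7.34. Of 50-base windows of the Adh1 transcript 0.28% were shared with the pseudogene Adh6-ps1, and none of the Adh7 windows was shared with another gene. Of the conjunctiva markers given above, 4 were also lower in BALB/cN, with Muc5ac and Krt8 on the other side. Of the 4, Muc4 was at 19.14 to 19.95, near the corneal keratin gene Krt12 at 19.60 to 19.85. The markers may thus not measure conjunctiva alone, and the part of this tissue in the Adh7, Adh1 and Rbp2 differences was not tested.

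Among 8 further retinol dehydrogenases tested, none passed. The separated one was Rdh13, a mitochondrial enzyme of this family, at 9.64 to 9.72 in BALB/cN and 9.42 to 9.50 in C57BL/6N (0.22, adjusted p = 0.0249 by limma). Dhrs3, which turns retinaldehyde back to retinol, was also separated, at 11.75 to 11.91 against 11.95 to 12.20, with a difference of -0.18 (adjusted p = 0.149).

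The synthesis of retinoic acid from retinaldehyde gave the single call among the 9 genes. Aldh1a3 was at 12.55, 12.74, 12.83 and 12.65 in BALB/cN replicates 1 to 4 and at 12.30, 12.15, 12.18 and 12.30 in C57BL/6N replicates 1 to 4. Every BALB/cN cornea lay above every C57BL/6N cornea. The mean was 12.69 ± 0.12 (SD, n = 4) against 12.24 ± 0.08, and the difference of 0.46 ± 0.0694 (SE), 1.37-fold on the rlog scale, had an adjusted p of 0.00234 by limma.

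By an exact two-sided permutation test over the 8 corneas the Aldh1a3 difference had p = 0.0286, the smallest that 4 against 4 allows. It was 0.45 with adjusted p = 0.0347 without the 3 corneas of low stromal markers, and 0.38 with adjusted p = 0.0707 after median centring, so that the call was lost in both. Within each strain, corneas of low stromal markers had Aldh1a3 values like the others, 12.74 against 12.55 to 12.83 in BALB/cN and 12.18 to 12.30 against 12.15 to 12.30 in C57BL/6N.

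Aldh1a3 (Ensembl ENSMUSG00000015134) lies on the minus strand at chr7:66390890-66427517 in GRCm38. Of its nearest tested protein-coding genes, Lrrk1, a kinase gene, had a difference of -0.24 (adjusted p = 0.0112 by limma) and Asb7, a ubiquitin ligase adaptor gene, 0.02 (adjusted p = 0.918). The higher level in BALB/cN was therefore not shared by these neighbours. None of the 50-base windows of the transcripts of the 9 genes was shared with another gene.

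Aldh1a2, the enzyme of this family that acts in most of the early embryo, was at 4.49, 3.87, 3.72 and 4.44 in BALB/cN replicates 1 to 4 and at 3.90, 4.76, 3.74 and 3.81 in C57BL/6N. Its 3 highest corneas were BALB/cN replicates 1 and 4 and C57BL/6N replicate 2, the same 3 as for Stra6. The difference of 0.08 (95% interval -0.49 to 0.65, adjusted p = 0.888 by limma) changed sign in 9 of 22 alternative settings.

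Aldh1a1, another retinaldehyde dehydrogenase and an abundant corneal enzyme, was at 11.54 to 12.10 in BALB/cN and 11.53 to 11.91 in C57BL/6N (0.03, adjusted p = 0.923 by limma). It shares 6.54% of its 50-base windows with Aldh1a7, so that its level is less certain than those of the other genes. Of the sum of the 3 enzymes, taken as 2 to the power of the rlog value per kilobase, Aldh1a3 held 59.1%, 69.2%, 71.9% and 69.6% in BALB/cN replicates 1 to 4 and 58.3%, 57.9%, 62.4% and 64.4% in C57BL/6N.

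The share of Aldh1a3 thus overlapped between strains, at 67.4% ± 5.70 (SD, n = 4) against 60.8% ± 3.17 (exact permutation p = 0.0857, and 0.3 with Benjamini-Hochberg adjustment over the 14 shares in 5 families compared). Aldh1a1 held 32.2% ± 5.64 against 38.8% ± 3.08, with the same exact permutation p of 0.0857. Aldh1a2 held 0.265% to 0.704% in the 8 corneas.

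**Figure D3:**
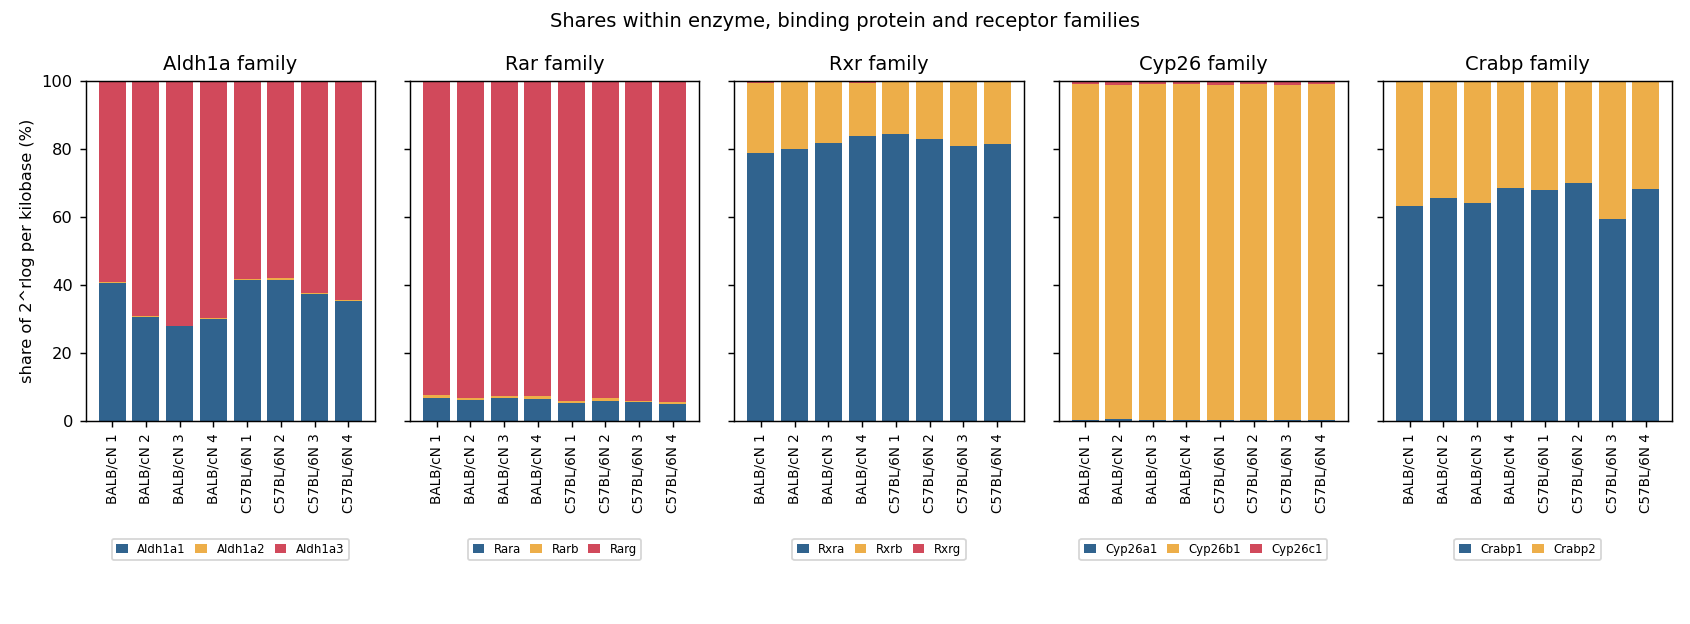
Stacked bars give, for each of the 8 corneas, the share (%) of each gene in the sum of 2 to the power of the rlog value per kilobase within 5 families. Aldh1a3 holds 57.9% to 71.9% of its family, Rarg 92.4% to 94.6%, Rxra 78.7% to 84.4%, Cyp26b1 98.2% to 98.9% and Crabp2 30.1% to 40.5%.

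Crabp2, a small protein that carries retinoic acid to its receptors, was at 6.01, 5.15, 5.99 and 5.88 in BALB/cN replicates 1 to 4 and at 6.52, 6.29, 5.14 and 5.09 in C57BL/6N. The low corneas were BALB/cN replicate 2 and C57BL/6N replicates 3 and 4, which are the 3 corneas with low stromal markers. These 3 were also lowest in corneal endothelium and macrophage markers, and the part of each tissue was not tested. The strain difference had a 95% interval of -0.78 to 0.78, so that a change of up to this size in either direction was not excluded. It was -0.27 with the stromal covariate (adjusted p = 0.158 by limma) and -0.45 without the 3 corneas of low stromal markers (adjusted p = 0.067).

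Within C57BL/6N the mean of Crabp2 was 1.29 higher in the 2 corneas with high stromal markers than in the 2 with low ones, and within BALB/cN it was 0.81 higher in 3 corneas than in 1. Crabp1, the other binding protein of this kind, followed the same corneas, at 6.06, 5.36, 6.11 and 6.28 in BALB/cN and at 6.89, 6.78, 4.98 and 5.46 in C57BL/6N. In whole-cornea RNA, fewer cells of a type and less RNA per cell cannot be told apart.

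Crabp2 held 34.7% ± 2.33 (SD, n = 4) of the pair Crabp1 and Crabp2 per kilobase in BALB/cN and 33.6% ± 4.64 in C57BL/6N (exact permutation p = 0.743). In the 3 corneas with low stromal markers this share was 34.4%, 40.5% and 31.9%, within or above the 30.1% to 36.9% of the other 5. Fabp5, a fatty acid-binding protein that can also bind retinoic acid, was separated at 7.91 to 8.30 in BALB/cN and 8.37 to 8.67 in C57BL/6N, with a difference of -0.32 (adjusted p = 0.0901 by limma).

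**Figure D4:**
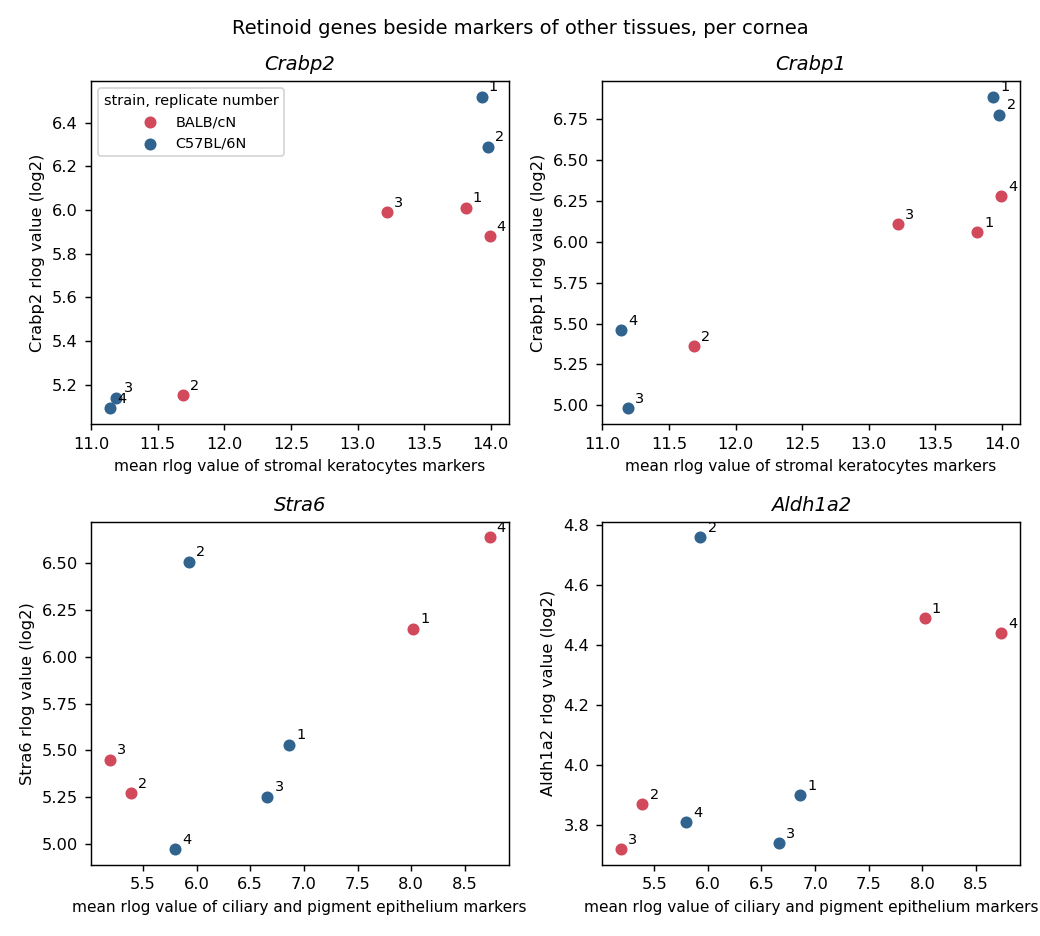
Each point is 1 cornea (red BALB/cN, blue C57BL/6N, with replicate numbers): Crabp2 and Crabp1 against the mean rlog value of stromal keratocyte markers, and Stra6 and Aldh1a2 against that of ciliary and pigment epithelium markers. The 3 corneas with stromal means of 11.14 to 11.69 have the lowest Crabp2 (5.09 to 5.15), and C57BL/6N replicate 2 is high in Stra6 (6.51) and Aldh1a2 (4.76) at a pigment epithelium mean of 5.93.

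Within BALB/cN, Stra6, Aldh1a2 and Rbp4 were highest in replicates 1 and 4, the corneas with the most ciliary, pigment, lens, blood vessel and muscle transcripts. The mean of these 2 corneas exceeded that of BALB/cN replicates 2 and 3 by 1.04 for Stra6, 0.67 for Aldh1a2 and 0.19 for Rbp4. Without BALB/cN replicates 1 and 4 the strain differences were -0.21 for Stra6, -0.26 for Aldh1a2 and -0.01 for Rbp4, none of which passed the test. Stra6 was also lowest in the 3 corneas of low stromal markers, at 4.97 to 5.27 against 5.45 to 6.64 in the others. Its mean was higher in the corneas of high stromal markers by 0.81 in BALB/cN and 0.91 in C57BL/6N. C57BL/6N replicates 1 and 3 had pigment epithelium means of 6.86 and 6.66 against 5.93 in replicate 2. Their Stra6 was lower, at 5.53 and 5.25 against 6.51.

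Of the 10 markers of ciliary and pigment epithelium 9 were tested, since Rpe65, which defines the retinal pigment epithelium, was at -1.74 to -1.72 in all corneas. Tyrp1, a melanin enzyme, was at 11.68 and 12.65 in BALB/cN replicates 1 and 4 and at 6.25 to 9.85 in the other corneas. Ptgds, a prostaglandin synthase in the stromal list, was highest in BALB/cN replicate 4 (12.58), BALB/cN replicate 1 (11.37) and C57BL/6N replicate 2 (10.63), the 3 corneas that were highest in Stra6 and Aldh1a2. It was at 6.42 in BALB/cN replicate 3, of high stromal markers, and at 9.49 in C57BL/6N replicate 3, of low ones. As 1 of the 8 markers it enters the stromal mean and covariate, which thus hold more than stroma. The part of these other tissues in the levels of Stra6, Aldh1a2 and Rbp4 was not tested.

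Cyp26b1, which oxidises retinoic acid and so ends its signal, was at 12.23, 11.90, 12.63 and 12.45 in BALB/cN replicates 1 to 4 and at 12.28, 12.23, 12.36 and 12.51 in C57BL/6N. The 4 C57BL/6N corneas lay within the range of the BALB/cN corneas. The difference of -0.04 had a 95% interval of -0.35 to 0.27 (adjusted p = 0.891 by limma).

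Of the Cyp26 family Cyp26b1 held 98.6% ± 0.31 (SD, n = 4) per kilobase in BALB/cN and 98.7% ± 0.147 in C57BL/6N, with Cyp26a1 and Cyp26c1 each at 1.3% or less in every cornea. Cyp26a1, the family member known for its strong response to retinoic acid, was at 2.84, 2.93, 2.92 and 2.92 in BALB/cN replicates 1 to 4 and at 2.69, 2.64, 2.65 and 2.64 in C57BL/6N. The strains did not overlap, and the difference of 0.25 ± 0.0439 (SE) had an adjusted p of 0.00573 by limma.

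At percentile 10.5 of protein-coding genes the rlog values of Cyp26a1 are strongly pulled together, and its read counts are not analysed here. It passed the test in 7 of 21 alternative settings, and without BALB/cN replicate 2, 3 or 4 or any single C57BL/6N replicate its adjusted p was 0.0135 to 0.0207. Cyp26c1 had a difference of -0.02 (95% interval -0.23 to 0.20).

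Rarg, the receptor of the RAR family known from stratified epithelia, was at 13.85, 14.07, 14.11 and 14.02 in BALB/cN replicates 1 to 4 and at 14.10, 14.00, 14.26 and 14.24 in C57BL/6N. The strains overlapped, since C57BL/6N replicate 2 was below BALB/cN replicates 2 to 4. The difference was -0.14 (95% interval -0.31 to 0.03, adjusted p = 0.31 by limma).

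Rxra, the partner receptor of the RARs in epithelia, was at 12.36, 12.57, 12.53 and 12.48 in BALB/cN and at 12.62, 12.65, 12.83 and 12.74 in C57BL/6N. Every BALB/cN cornea lay below every C57BL/6N cornea, and the exact permutation p was 0.0286. The difference of -0.22 (95% interval -0.37 to -0.08), 1.17-fold lower on the rlog scale, had an adjusted p of 0.055 by limma, and its adjusted p was 0.0136 to 0.879 over 22 alternative settings.

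Within the RAR family Rarg held 92.8% ± 0.416 (SD, n = 4) per kilobase in BALB/cN and 94.1% ± 0.519 in C57BL/6N (exact permutation p = 0.0571). Rara, the broadly expressed RAR, held 6.80%, 6.24%, 6.72% and 6.56% in BALB/cN replicates 1 to 4 and 5.30%, 5.94%, 5.45% and 5.08% in C57BL/6N. Its shares did not overlap, at 6.58% ± 0.245 against 5.44% ± 0.363, with exact permutation p = 0.0286 and 0.3 after adjustment over the 14 shares.

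Rarb, the RAR known to be induced by retinoic acid, held 0.312% to 0.806%. By rlog value it was at 7.32, 6.41, 6.82 and 7.43 in BALB/cN and at 7.02, 7.28, 6.32 and 6.45 in C57BL/6N, lowest in the 3 corneas with low stromal markers, as Crabp2 was. The 3 highest Rarb corneas were the same 3 as for Stra6. In the RXR family Rxra held 81.1% ± 2.27 in BALB/cN and 82.5% ± 1.49 in C57BL/6N (exact permutation p = 0.4), Rxrb 18.5% and 17.2%, and Rxrg 0.374% and 0.284%.

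None of the 7 coregulators of these receptors passed. The corepressor Ncor1 had a difference of -0.04, and the coactivators and other cofactors Ncoa1, Ncoa2, Nrip1 and Med1 had differences from -0.18 to -0.08. Ncoa3 was separated, at 12.85 to 12.96 in BALB/cN and 12.97 to 13.20 in C57BL/6N (-0.16, adjusted p = 0.141 by limma).

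Receptor pairs bind DNA at direct repeats of a short half-site. The half-site AGGTCA or its close form AGTTCA, and, with another first base, GGGTCA or its close form GGTTCA, were searched on both strands as pairs 1, 2 or 5 bases apart in RefSeq promoters of GRCm38.p6, from 250 bases before to 50 bases after each start. Of 32851 promoters 0.588% held such a pair, 0.222% with a spacing of 1, 0.268% with a spacing of 2 and 0.0974% with a spacing of 5. Entries were found for 6 of the 9 genes (12 promoters), with no match, and Aldh1a3, Crabp2 and Rdh10 had no entry. Among 54 promoters of 39 wider pathway genes 3 held a match, and their repeats are shown because they belong to the genes of breakdown, receptor and carotenoid cleavage described above, with the half-sites in capitals on the strand of the gene.
Rarb: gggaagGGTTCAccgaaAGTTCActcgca
Cyp26a1: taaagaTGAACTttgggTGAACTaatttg
Bco1: gggaacTGACCTtTGACCTaacaca
The Rarb repeat (chr14:16575507-16575535, minus strand, spacing 5) lies 53 to 37 bases before this RefSeq start. The annotated gene begins further upstream, at 16819156. That of Cyp26a1 (chr19:37697770-37697798, plus strand, spacing 5) lies 32 to 16 bases before the start and that of Bco1 (chr8:117095803-117095827, plus strand, spacing 1) 56 to 44 bases before it, both with the half-sites on the opposite strand. Of these genes Cyp26a1 passed the strain test, and Rarb (0.23, adjusted p = 0.654 by limma) and Bco1 (0.13, adjusted p = 0.613) did not. A match describes letters in the reference genome and does not show that a receptor binds there.

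Genes that respond to retinoic acid in other tissues were listed as a set of 20, of which 6 are also in the wider pathway list. Of these 16 were tested, 1 was higher in BALB/cN (Cyp26a1), none was lower, and the median difference was -0.15. A share of 1 in 16 is close to the 5.74% called over all genes tested. Among those not tested, Stra8, Hoxb1 and Hoxa5 were listed at 0 in all corneas. Foxc1, a transcription factor of the anterior eye, was separated at 12.37 to 12.53 against 12.61 to 12.80 (-0.25, adjusted p = 0.0253 by limma), and Meis1, a homeobox factor, at 11.80 to 11.99 against 12.02 to 12.40 (-0.28, adjusted p = 0.0821).

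Tgm2, a transglutaminase, was at 13.89 to 14.17 in BALB/cN and 14.08 to 14.43 in C57BL/6N (-0.23, adjusted p = 0.124 by limma). Dkk2, a Wnt antagonist, was in each strain lowest in the corneas with low stromal markers, at 11.16 in BALB/cN and at 11.55 and 11.59 in C57BL/6N.

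For each of the 9 genes the protein-coding genes whose rlog values ran most alike over the 8 corneas were ranked by Pearson r among 12696 genes whose rlog values averaged 5 or more. Aldh1a3 was closest to the translation factor gene Eif3f (r = 0.992), Dgat2 (0.983) and Clic5 (0.982). Rxra was closest to Lynx1 (0.991), Rhbdl2 (0.991) and Stat3 (0.99), and Rarg to Zfp750 (0.985), Clca3a2 (0.976) and Stat6 (0.973). Rdh10 ran with Ly6g6c (0.988), Tns4 (0.975) and Kmt2e (0.97), and Cyp26b1 with Cbr1 (0.935), Map2k1 (0.927) and Phlda1 (0.876).

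Crabp2 was closest to Car3 (0.992), Cyp2f2 (0.991) and Slc39a13 (0.989), Stra6 to Kcna1 (0.982), Sccpdh (0.982) and Atp1b2 (0.981), Aldh1a2 to the elastin gene Eln (0.968), 2610008E11Rik (0.964) and Dhdh (0.933), and Rbp4 to Thsd7a (0.983), Ccdc141 (0.983) and Six3 (0.979). These values describe 8 corneas that share strain and tissue composition, and they are the highest of 12696 ranked values. Rbp4 was at 1.49 and 1.51 in BALB/cN replicates 1 and 4 and at 1.31 to 1.36 elsewhere. Its r thus rests mainly on these 2 corneas, near the bottom of the scale.

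**Figure D5:**
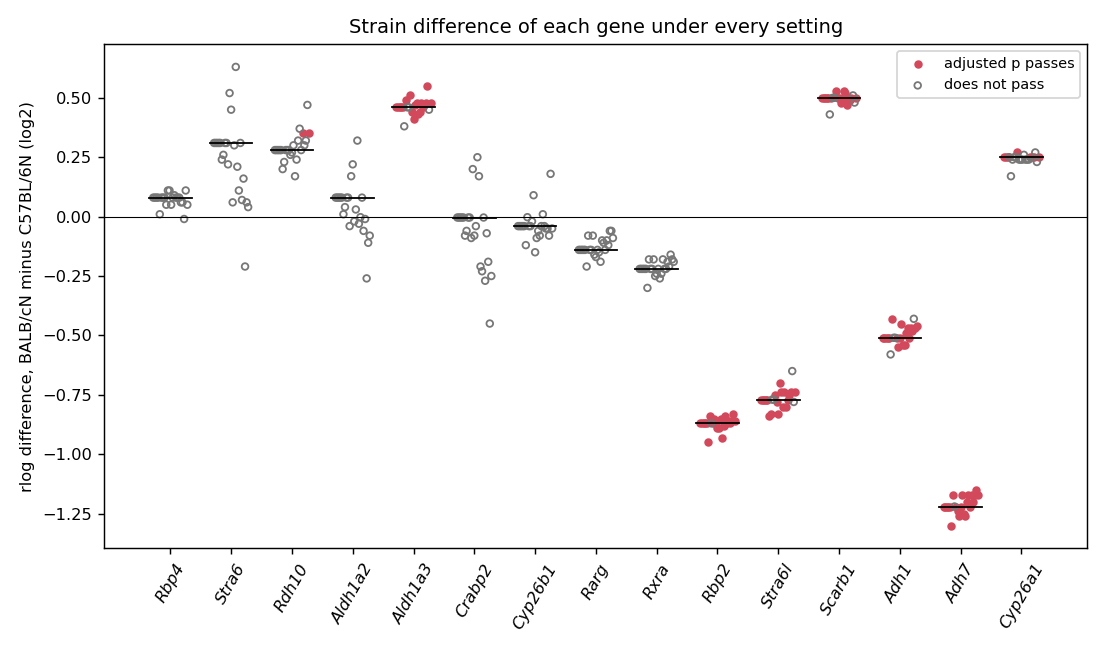
For each of the 9 genes and the 6 called genes of the wider pathway, points give the rlog difference, BALB/cN minus C57BL/6N (log2), under the reported setting (black line) and each alternative, red where the adjusted p passed the threshold. Aldh1a3 stays between 0.38 and 0.55, Adh7 between -1.30 and -1.15, and Aldh1a2 runs from -0.26 to 0.32.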

How the data were processed

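Total RNA was sequenced from 4 naive corneas of BALB/cN and 4 of C57BL/6N mice. Per the study's methods the authors trimmed and filtered paired reads, aligned them to strain-specific versions of GRCm38 with TopHat2 2.1.1, counted them per Ensembl gene with HTSeq 0.7.1, and deposited DESeq2 1.30 rlog values, which are log2 values normalised for library size. They hold no read counts, and 0 columns were left unused. Libraries were strand-specific, and the strand setting of the counting is not given in the sources used here.

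The limma package 3.58.1 in R 4.3.3 (lmFit, eBayes with a variance trend) was used to compare strains over the 25402 genes whose rlog values averaged 0 or more, with Benjamini-Hochberg adjustment and calls at 0.01. The methods of the study use a count model, which these values do not allow, and recalibrate its p-values with fdrtool before adjustment. The reported limma calls have no such recalibration, and an empirical null was run only as an alternative. Single values and family shares were compared with exact two-sided permutation tests (scipy 1.17.1, Python 3.11.15). The test was checked on simulated data with independent noise for each gene. Such data lack the tissue differences that the corneas share across genes, so the check says nothing on their effect. Positions and exon lengths came from GENCODE vM21, which named 31302 of 31314 genes not at 0 in all corneas. Plots used matplotlib 3.10.9 and tables pandas 2.3.3 with numpy 2.4.6.

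The 9 genes and the lists (wider pathway, responsive genes, and markers of corneal epithelium, stroma, endothelium, ciliary and pigment epithelium, lens, photoreceptors, conjunctiva, macrophages, blood vessels, muscle and red blood cells) were chosen with earlier results of these data known. Named are the 9 genes, called genes of the lists, uncalled genes needed to describe a role, nearest tested neighbours of called members, the 3 most alike genes of each member and tissue markers. Alternatives were no trend, robust variance, other filters, median centring, quantile normalisation, an empirical null, a replicate block, leaving out each cornea, a threshold of 0.05 and marker means as covariates. Leaving out BALB/cN replicates 1 and 4 or the 3 corneas of low stromal markers, and both covariates together, were chosen after seeing the data. A few list genes are counted with their lists, and their own values are not reported here.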

Additional observations from a re-analysis of the deposited data

Results flagged for a closer look

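In groups of 4 corneas, a value was noted where its gap to the nearest other cornea took up more of the group's range than the 95% critical value of Dixon's test allows. Of 30 groups (15 genes in 2 strains) 5 were noted, where independent groups of normal values would give about 1 in 20, or 1.5. The genes share the same corneas, and Rbp4 and Cyp26a1 lie near the bottom of the scale, so no excess can be read from this. Aldh1a2 was highest in C57BL/6N replicate 2, at 4.76 against 3.90 in the next cornea, a gap of 0.845 of the range. Crabp2 was lowest in BALB/cN replicate 2, at 5.15 against 5.88, a gap of 0.852, in the BALB/cN cornea with the lowest stromal markers. Rbp4 in C57BL/6N replicate 2, at 1.36 against 1.32 (0.966 of the range), Cyp26a1 in BALB/cN replicate 1, at 2.84 against 2.92 (0.873), and Cyp26a1 in C57BL/6N replicate 1, at 2.69 against 2.65 (0.902), stood apart by less than 0.1 on the rlog scale.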

How the results depend on the processing

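Of all genes tested, 1458 passed as reported, 958 with median centring, 554 with the replicate block, 2842 at an adjusted p of 0.05, 2410 with the stromal covariate, 2854 with both covariates, 447 without BALB/cN replicates 1 and 4, 852 without the 3 corneas of low stromal markers, and 953 to 1163 when each cornea was left out. With the empirical null, limma called 0, with 1730 genes at an unadjusted p under 0.05. Median centring moved the median of all genes to -0.066. Of the 9 genes, 1 was called as reported, 0 with median centring, the empirical null, the replicate block or without the corneas of low stromal markers, and 2 with the stromal or both covariates. Of the wider pathway 6 passed as reported, 3 with median centring, 0 with the empirical null, 2 with the replicate block, 2 without BALB/cN replicates 1 and 4 and 3 without the corneas of low stromal markers. Of the responsive genes 1 passed as reported, 0 without a filter, with the higher filter, median centring, quantile normalisation, the empirical null, the replicate block or either set of corneas left out, 2 at 0.05, 4 with the stromal covariate, 5 with both covariates, and 0 to 1 with each cornea left out.

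Replicate numbers did not pair the corneas (correlations of deviations 0.31, -0.53, -0.20 and -0.45). Without BALB/cN replicates 1 and 4 differences turned to -0.01 for Rbp4, -0.21 for Stra6 and -0.26 for Aldh1a2. Aldh1a2 was -0.06 with the stromal covariate, -0.01 with the pigment covariate, -0.08 with both, -0.11 without the corneas of low stromal markers and -0.04 to 0.32 with each cornea left out. Crabp2 was -0.45 without the corneas of low stromal markers. It ran from -0.23 to 0.25 and Cyp26b1 from -0.15 to 0.09 with each cornea left out, and Cyp26b1 was 0.18 without the corneas of low stromal markers. Aldh1a3 kept its call in 18 of 22 alternatives, with an adjusted p of 0.0325 in the replicate block. Adh7 and Rbp2 lost theirs with the empirical null alone. With the replicate block the adjusted p was 0.0137 for Scarb1, 0.025 for Adh1, 0.0108 for Stra6l and 0.0538 for Cyp26a1, and with the empirical null none of the called genes passed. The family shares moved by less than the spread between replicates when each cornea was left out, and were tested again only with the length of the longest transcript, where each kept its side of the threshold. The causes were not tested. The depth of the libraries is unknown, and Rbp4 and Cyp26a1 lie near the bottom of the scale.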
